A study of Mus musculus with 12 samples.

Results

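The potassium channel genes were defined as the genes of the FPKM table whose symbol opens with Kcn, further letters and a number, without Kcne2 and Kcnj13 and without symbols ending in os. Of 93 such symbols, 80 had a mean FPKM (fragments scaled to gene length and library size) of at least 0.1 over the libraries and were kept as members, among 27833 genes in the table. Kcnmb2, at a mean of 0.102 FPKM, was the member just inside this limit, and Kcnq1, at 0.084, was the gene just outside it. The members comprised 78 protein-coding genes of 15 subfamilies. The other 2, Kcnmb4os1 and Kcnmb4os2, are RNAs from the strand opposite Kcnmb4, whose symbols end in a digit.

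The libraries came from the hippocampus of wild-type male C57BL/6J mice that were 20 months old and were treated for 14 days by oral gavage. The CON group (3 libraries) received normal saline, the PQQ-L group (5 libraries) received pyrroloquinoline quinone (PQQ, a redox cofactor of bacteria) at 5 mg/kg/day, and the PQQ-H group (4 libraries) received it at 10 mg/kg/day. The study assigned 6 mice to each group, and the labels do not state further which mouse gave each library, so p-values measure the spread between these libraries. Every library was bulk RNA of tissue, in which fewer cells of a type and less RNA per cell cannot be told apart.

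The libraries differed in more than the treatment. Library totals over genes ran from 29654553 to 38179496 reads. The summed FPKM of 12 marker genes of striatal medium spiny neurons was 1380 to 3460 in 4 libraries, which were PQQ-H 1, PQQ-H 2, CON 1 and CON 3, and 38.0 to 185 in the other 8 libraries. The summed FPKM of 10 marker genes of hippocampal neurons was 37.3 to 94.7 in those 4 libraries and 149 to 375 in the other 8. These 4 libraries, called striatum-rich below, therefore stood apart from the tissue on their label, and all 5 PQQ-L libraries were striatum-poor. The same 4 libraries were above the other 8 in summed markers of cholinergic neurons, at 6.44 to 23.5 against at most 0.54 FPKM. GABA interneuron markers were at 609 to 874 against at most 591 FPKM, and microglia markers at 251 to 318 against at most 224. Endothelium markers were at 87.4 to 121 against at most 82.0, and mural cell markers at 83.2 to 98.6 against at most 81.2. Astrocyte and oligodendrocyte markers overlapped. Choroid plexus markers (16 genes) summed to 1560 to 5500 FPKM in the CON libraries, 51.2 to 126 in PQQ-L and 21.8 to 35.6 in PQQ-H. Of the 15 choroid plexus markers tested, 12 in PQQ-L and 13 in PQQ-H were lower at an adjusted p below 0.05 with limma. Each library name starts with an L or an R, whose meaning the labels do not give.

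Potassium channels let potassium ions leave the cell and so set the resting potential, the shape of the action potential and the firing rate of neurons. Voltage-gated (Kv) channels open on depolarization, inward rectifiers (Kir) and 2-pore (K2P) channels carry current near rest, and calcium- or sodium-activated channels follow activity. Auxiliary subunits change the gating or traffic of the pore-forming ones. In the hippocampus, different neurons and glia use different sets of these genes, and astrocytes take up extracellular potassium through inward rectifiers.

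The upstream sequences of 4 members that the results turn on are shown to place these genes in the genome, namely Kcnh2, the only member to reach an adjusted p below 0.05, and Kcnh4, Kcna5 and Kcnj3, whose levels did not overlap between striatum-rich and striatum-poor libraries. Each window holds the 250 bases before a transcription start in RefSeq (build GRCm38.p6), written 5′ to 3′ on the strand of the gene. The windows are chr5:24329592-24329841 (minus strand) for Kcnh2, chr11:100759779-100760028 (minus strand) for Kcnh4, chr6:126535556-126535805 (minus strand) for Kcna5 and chr2:55435720-55435969 (plus strand) for Kcnj3. Capitals mark matches to the GC box GGGCGG, the CCAAT box CCAAT, the E-box CACGTG, the TATA box TATAAA or the cyclic AMP response element TGACGTCA on either strand.
Kcnh2: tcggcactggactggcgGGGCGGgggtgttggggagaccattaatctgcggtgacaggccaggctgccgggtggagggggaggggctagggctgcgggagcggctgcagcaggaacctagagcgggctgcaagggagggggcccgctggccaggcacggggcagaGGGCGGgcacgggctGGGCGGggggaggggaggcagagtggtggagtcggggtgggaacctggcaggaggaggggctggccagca
Kcnh4: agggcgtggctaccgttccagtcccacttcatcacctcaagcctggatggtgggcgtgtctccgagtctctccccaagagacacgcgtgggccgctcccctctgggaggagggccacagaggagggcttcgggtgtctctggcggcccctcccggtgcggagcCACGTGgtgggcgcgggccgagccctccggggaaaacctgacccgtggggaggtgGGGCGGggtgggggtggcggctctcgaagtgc
Kcna5: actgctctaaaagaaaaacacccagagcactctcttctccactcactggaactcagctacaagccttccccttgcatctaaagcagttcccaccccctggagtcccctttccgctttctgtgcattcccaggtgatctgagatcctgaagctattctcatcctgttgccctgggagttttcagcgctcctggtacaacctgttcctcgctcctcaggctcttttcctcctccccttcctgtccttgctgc
Kcnj3: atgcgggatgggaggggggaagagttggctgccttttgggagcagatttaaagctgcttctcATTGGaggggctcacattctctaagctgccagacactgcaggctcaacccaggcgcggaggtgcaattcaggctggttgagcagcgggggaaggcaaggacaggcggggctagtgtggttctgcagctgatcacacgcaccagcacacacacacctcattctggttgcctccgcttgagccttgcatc

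The Kcnh2 window held 3 GC boxes and 73.6% G and C, and the Kcnh4 window held 1 GC box, 1 E-box and 70.8% G and C. None of the motifs searched was found in the Kcna5 window (53.2% G and C), and the Kcnj3 window (58.4%) held 1 CCAAT box. RefSeq listed windows for 57 of the 80 members, 80 windows in all, against 32851 windows in the table. The median G and C content was 60.0% in the members' windows and 52.4% in all windows, and the motif shares were not adjusted for it. A GC box was found in 48.8% of the members' windows and in 32.7% of all windows, and a TATA box in 2.5% against 12.4%. A CCAAT box was found in 28.7% against 33.8%, an E-box in 7.5% against 6.02% and the cyclic AMP response element in 0.0% against 1.55%. The E-box and the response element read the same on both strands, and no motif contains another. A match describes the letters of the window and was not tested as a binding site.

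The members spanned a wide range of levels. Mean FPKM was at least 10 for 24 members, 1 to 10 for 38 and under 1 for 18. Auxiliary subunits had some of the highest means. Kcnab2, a cytoplasmic beta subunit of Kv1 channels, was at 70.2 FPKM and Kcnip2, a calcium-binding partner of Kv4 channels, at 57.6. Kcnab1, another beta subunit, was at 41.9 FPKM and Kcnj10, the astrocytic inward rectifier, at 27.8. Their order is a description, since Kcnip2 alone ranged from 25.4 to 110.0 FPKM between libraries. The summed FPKM of all members was 755 ± 81.7 (SD, n = 3) in CON, 710 ± 31.4 (n = 5) in PQQ-L and 726 ± 42.3 (n = 4) in PQQ-H. The libraries of all 3 groups overlapped in this sum, which ran from 671 to 849.

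Single members varied more between libraries than genes in general. The median range of log2(FPKM + 0.1) over the 12 libraries was 1.34 for the 70 members tested and 0.74 for all 13796 genes tested. The range was above 1 for 51 of these members and above 2 for 15. The heat map of 67 of these members shows where this variation lay.

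**Figure D1:**
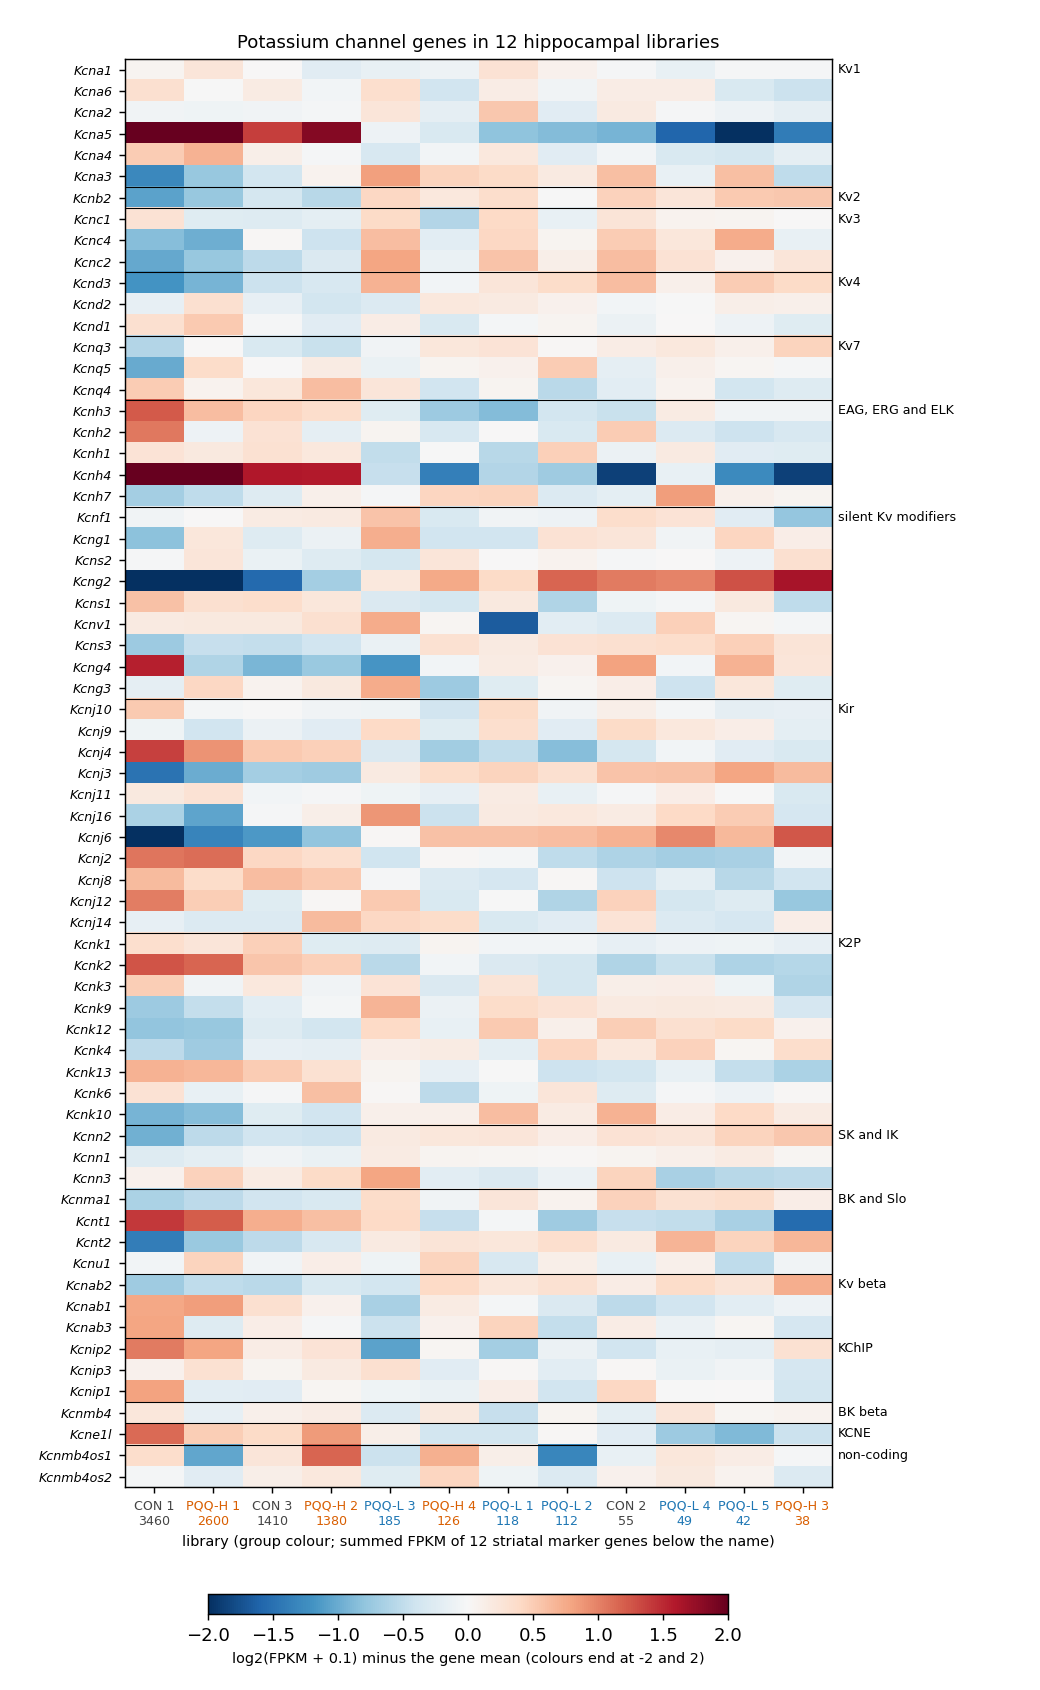
Each row is 1 of 67 of the 70 potassium channel genes tested, grouped by subfamily, and each column is 1 library, ordered by the summed FPKM of the 12 striatal marker genes printed under its name (CON grey, PQQ-L blue, PQQ-H orange). Colour is log2(FPKM + 0.1) minus the mean of the gene. The left 4 columns, at 1380 to 3460, hold the strongest colours, with Kcna5 and Kcnh4 high and Kcng2 and Kcnj6 low.

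In the striatum-rich libraries, 11 of the 70 members tested were above all 8 other libraries and 14 were below them. These counts are 15.7% and 20.0% of the members, against 10.7% and 14.3% of all genes tested. The members that were higher were Kcnh4, Kcna5, Kcnk2, Kcnj4, Kcnj8, Kcnj2, Kcne1l, Kcnk13, Kcnt1, Kcnh3 and Kcns1. They include inward rectifiers of the strongly rectifying type (Kcnj2, Kcnj4), the mechanosensitive K2P channel Kcnk2 and the sodium-activated channel Kcnt1. Among the members that were lower were Kcng2, Kcnj3, Kcnj6, Kcnt2, Kcnn2, Kcnk10, Kcnb2, Kcnd3, Kcns3, Kcnma1, Kcnc2, Kcnk12 and Kcnn1. They include 2 subunits of G protein-coupled inward rectifiers (Kcnj3, Kcnj6), the calcium-activated channels Kcnn1, Kcnn2 and Kcnma1, and the A-type channel Kcnd3. The libraries were ordered by a marker list that holds no member, and the split is given as a description without a test. Since the striatum-rich libraries were also higher in markers of other cell types, the split does not assign a member to striatal neurons.

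Kcnh4, a slowly gating Kv channel of the ELK type, was at 7.21, 0.188 and 3.08 FPKM in CON, at 0.600, 0.540, 0.664, 0.848 and 0.334 in PQQ-L, and at 4.95, 3.06, 0.186 and 0.305 in PQQ-H. The high libraries were the 4 striatum-rich ones, and the lowest of them was 3.6 times the highest of the other 8. Kcna5, a Kv1 channel, was at 8.87, 0.684 and 3.80 FPKM in CON, at 0.749, 0.715, 1.28, 0.397 and 0.273 in PQQ-L, and at 6.66, 5.23, 0.463 and 1.1 in PQQ-H. The same 4 libraries were high, 2.96-fold above the nearest other library. Kcnk2, a K2P channel opened by stretch and lipids, was at 19.6 to 33.6 FPKM in them and at 9.08 to 13.5 in the others.

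The opposite order was seen for channels coupled to G proteins. Kcnj3, an obligate partner in most neuronal G protein-coupled inward rectifiers, was at 4.06, 17.0 and 7.09 FPKM in CON, at 15.7, 14.3, 13, 17.3 and 19.9 in PQQ-L, and at 5.71, 6.95, 17.8 and 14.8 in PQQ-H. The 8 striatum-poor libraries, of all 3 groups, were at 13 or more and the striatum-rich at 7.09 or less. Kcnj6, the subunit that forms channels with Kcnj3, was at 0.739, 5.71 and 1.52 FPKM in CON, at 5.27, 5.42, 3.54, 6.91 and 5.56 in PQQ-L, and at 1.34, 1.99, 8.40 and 5.27 in PQQ-H. Kcnj9, the remaining subunit of this kind at a high level, was not split in this way (19.7 to 34.0 FPKM). Kcng2, a silent subunit that modifies Kv2 channels, was at 0.302 to 2.19 FPKM in the striatum-rich libraries and at 4.11 to 11.4 in the others. Kcnn2, the small-conductance channel of the afterhyperpolarization, was at 4.02 to 6.07 and 8.70 to 11.6 FPKM, respectively.

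**Figure D2:**
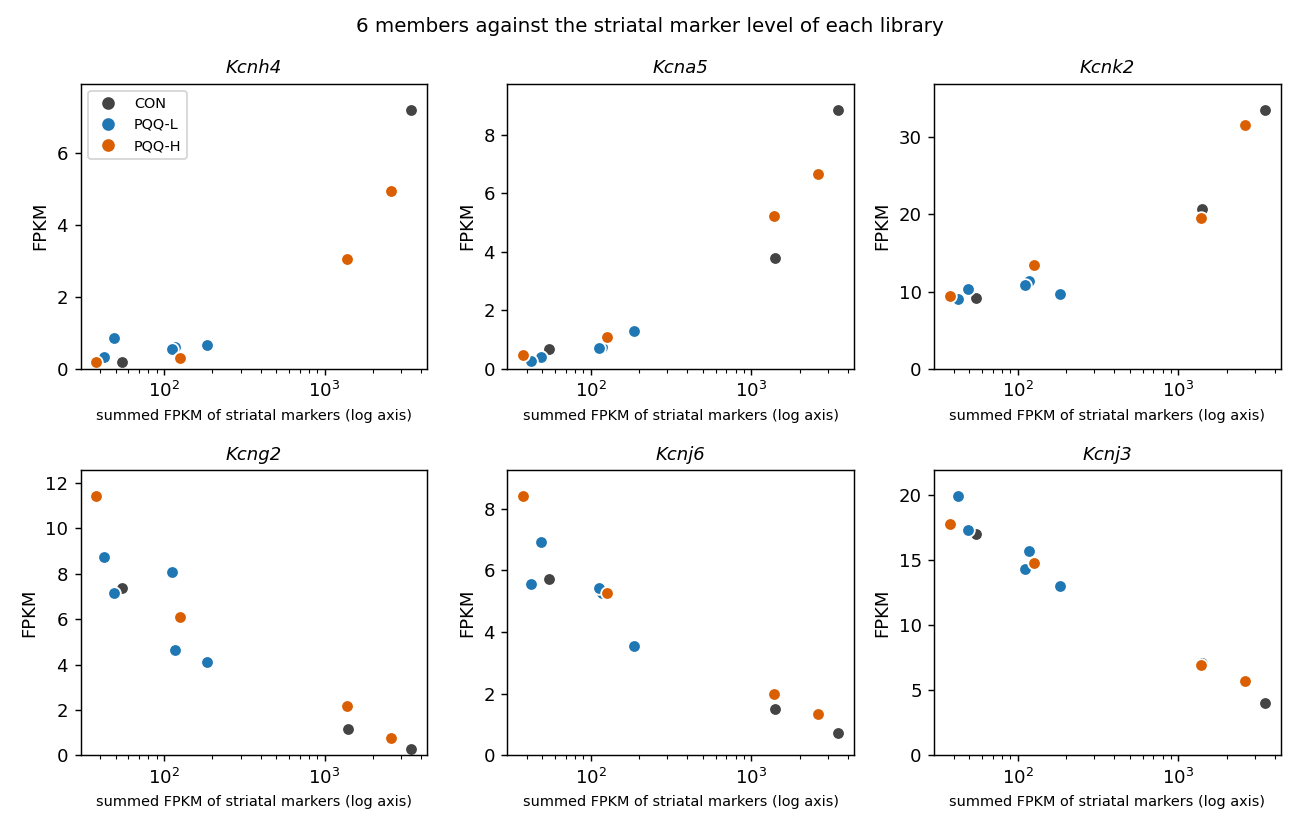
FPKM (linear axis) of 6 members against the summed FPKM of 12 striatal marker genes (log axis), 1 point per library, CON grey, PQQ-L blue and PQQ-H orange. Kcnh4, Kcna5 and Kcnk2 are high and Kcng2, Kcnj6 and Kcnj3 low in the 4 libraries at 1380 to 3460, which belong to CON and PQQ-H.

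The comparison of PQQ-L with CON asks how the low dose changed the tissue. With limma, 0 of the 70 members passed both a |log2FC| above 1 and an adjusted p below 0.05, against 0.471% of all genes tested. At an adjusted p below 0.05 alone the count was 0, against 0.587%, while limma voom on recovered reads gave 1, Kcnh2 (adjusted p = 0.0463). At an unadjusted p below 0.05, 5 members were lower (Kcnh2, Kcna5, Kcnip2, Kcnk1 and Kcnj4) and 9 were higher (among them Kcnk9, Kcnt2, Kcnq5, Kcnj16, Kcnh7, Kcnj3, Kcng2 and Kcnj6), against 11.6% of all genes lower and 8.92% higher. The log2FC was below 0 for 39 of 70 members, against 53.9% of all genes, with a median of -0.05 for the members and -0.03 for all genes tested. PQQ-L and CON did not overlap for 1 member that was lower, Kcnh2, and 1 that was higher, Kcnj16, against 7.66% and 2.96% of all genes.

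This comparison set 5 striatum-poor libraries against a CON group with 2 striatum-rich libraries of 3. All 11 members that were high in the striatum-rich libraries had a negative log2FC in PQQ-L vs. CON, with a median of -0.79, and all 14 that were low there had a positive one, with a median of 0.62. These signs were largely set by how the 25 members were chosen, since CON 1 and CON 3 lay on 1 side of all PQQ-L libraries, and they are given as a description. With the striatal marker score as a covariate, the medians were -0.11 and 0.12. The log2FC of Kcna5 was -2.09 (SE 0.905, adjusted p = 0.237) without and -0.33 (SE 0.195, adjusted p = 0.772) with the covariate in limma. When CON 2, the striatum-poor CON library, was left out, 13 members passed both thresholds, against 6.28% of all genes. Of these 13, 11 were among the 25 members ordered by the striatal level. At an adjusted p below 0.05 alone, 23 members passed, against 23.4% of all genes. Without the 4 striatum-rich libraries, 0 members passed, against 0.00725% of all genes, and 2 were lower at an unadjusted p below 0.05 and 1 was higher, against 3.06% and 1.51% of all genes. That fit holds 1 CON library, assumed to vary like the other groups.

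The comparison of PQQ-H with CON asks the same of the high dose and shares its 3 CON libraries with the former. No member passed both thresholds (0 of 70, against 0.819% of all genes), and 1 member, Kcnh2, was lower at an adjusted p below 0.05, against 1.09%. At an unadjusted p below 0.05, 5 members were lower (Kcnh2, Kcnk3, Kcna6, Kcnj10 and Kcnip1) and 2 higher (among them Kcnq5), against 7.88% and 1.85% of all genes. The log2FC was below 0 for 40 of 70 members, against 55.6%, with a median of -0.08 for the members and -0.03 for all genes. For 6 members every PQQ-H library was below every CON library, against 5.72% of all genes. These were Kcnh2, Kcnk3, Kcna6, Kcnj10, Kcnab3 and Kcnj9. Without CON 3, 1 member passed both thresholds, Kcnh2, against 0.449%. Without the 4 striatum-rich libraries, 0 members passed an adjusted p of 0.05, against 0.0435%, and 9 were lower and 2 higher at an unadjusted p below 0.05, against 8.15% and 2.31%.

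**Figure D3:**
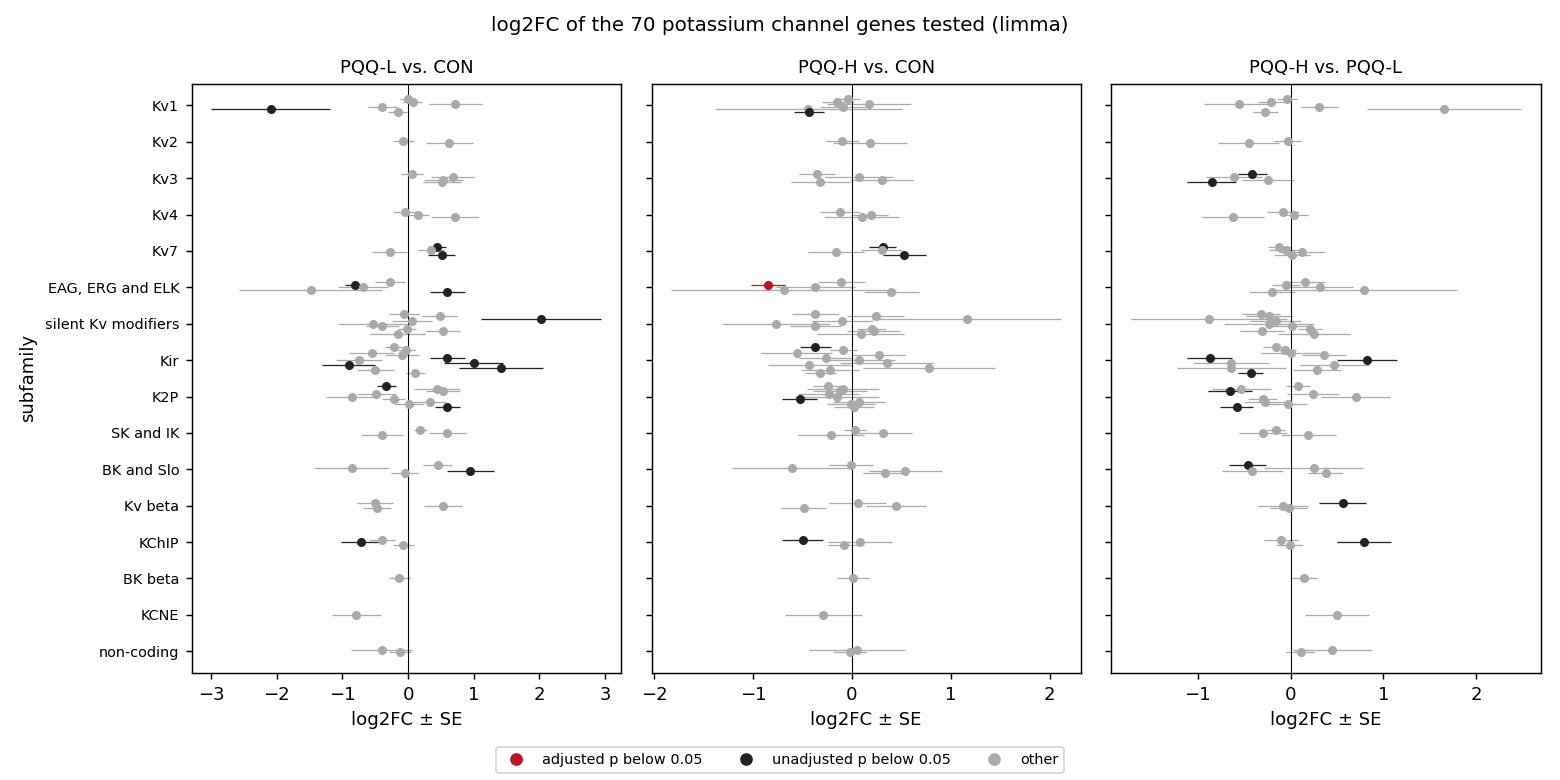
log2FC with its standard error (limma) for the 70 potassium channel genes tested, 1 point per gene, by subfamily and comparison, with an x axis of its own range for each comparison. 1 point is red, Kcnh2 in PQQ-H vs. CON at -0.85, the only adjusted p below 0.05, and the widest error bars belong to Kcna5, Kcnh4 and Kcng2.

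The comparison of the doses, PQQ-H with PQQ-L, gave 0 of 70 members past both thresholds and 0 at an adjusted p below 0.05, against 0.0% of all genes for both. At an unadjusted p below 0.05, 7 members were lower in PQQ-H (Kcnj16, Kcnk9, Kcnc4, Kcnj9, Kcnk12, Kcnc1 and Kcnma1) and 3 higher (Kcnip2, Kcnj2 and Kcnab1), against 4.6% and 3.55% of all genes. The groups did not overlap for 4 members that were lower (Kcnj16, Kcnk9, Kcnc4 and Kcnk12) and 1 that was higher (Kcnip2), against 3.33% and 1.42%. The log2FC was below 0 for 43 of 70 members, against 54.3%, with a median of -0.06, and -0.02 over all genes. This comparison set 2 striatum-rich libraries of 4 against none of 5. The 11 members high in the striatum-rich libraries all had a positive log2FC (median 0.47) and the 14 that were low all had a negative one (median -0.50), signs largely set by the choice of those members. With the striatal score as a covariate the medians were -0.01 and -0.05. Kcnk12, Kcnma1 and Kcnj2 are among these members. Without the striatum-rich libraries, which leave 2 PQQ-H libraries, 11 members were lower and 3 higher at an unadjusted p below 0.05, against 8.75% and 3.91%.

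Kcnh2 encodes the ERG channel, a Kv channel that closes slowly and limits repetitive firing, and which repolarizes the heart. It was at 11.4, 7.82 and 6.70 FPKM in CON, at 5.49, 4.42, 5.66, 4.52 and 4.06 in PQQ-L, and at 5.10, 4.80, 4.33 and 4.35 in PQQ-H. All 9 libraries of the PQQ-treated groups were below all 3 CON libraries. The log2FC was -0.85 (SE 0.172, adjusted p = 0.0418) in PQQ-H and -0.80 (SE 0.165, adjusted p = 0.0604) in PQQ-L with limma. Between the doses, Kcnh2 was at 4.65 ± 0.373 FPKM (SD, n = 4) in PQQ-H and 4.83 ± 0.706 (n = 5) in PQQ-L, which overlapped.

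The low level was seen within both letters of the library names. The difference from CON in mean log2(FPKM + 0.1) was -0.60 in PQQ-H and -0.74 in PQQ-L among libraries with L, and -1.37 and -1.13 among those with R. The values for R rest on 1 CON library, CON 1, the highest at 11.4 FPKM, which was set against 1 PQQ-H and 3 PQQ-L libraries. In the striatum-poor libraries alone, CON 2 was at 7.82, above the 5 PQQ-L and the 2 PQQ-H libraries, at 4.06 to 5.66 FPKM. In PQQ-H vs. CON the adjusted p was below 0.05 in 11 of 31 alternatives, and the log2FC lay between -1.11 and -0.49 in all of them. The adjusted p was above 0.05 in 10 of the 12 fits without 1 library. It was 0.113 without CON 1 (log2FC -0.63), 0.0602 without CON 2 (log2FC -0.90), 0.0546 to 0.0695 without PQQ-L 1, 2, 4 or 5, and 0.0581 to 0.135 without any single PQQ-H library. Markers of thalamic neurons (8 genes) summed to 125, 83.1 and 18.1 FPKM in CON, in the same order as Kcnh2, and to 13.1 to 41.1 in PQQ-L and 11.4 to 30.4 in PQQ-H. Across groups this order was not kept in every library. PQQ-L 1 (41.1) and PQQ-H 4 (30.4) had more of these markers than CON 3 (18.1). Their Kcnh2 was lower, at 5.49 and 4.35 FPKM against 6.70. Within PQQ-L, the libraries with the most of these markers, PQQ-L 1 (41.1) and PQQ-L 3 (23.0), had the highest Kcnh2, at 5.49 and 5.66 FPKM. Within PQQ-H, PQQ-H 1 had the least of them (11.4) and the highest Kcnh2 (5.10). With the thalamic score as a covariate, the log2FC of Kcnh2 was -0.49 in PQQ-H (adjusted p = 0.612) and -0.42 in PQQ-L (adjusted p = 0.614) with limma. Thalamic content as a cause of the Kcnh2 difference was not tested. With the striatal score as a covariate it was -0.79 in PQQ-H (SE 0.151, adjusted p = 0.0209) and -0.64 in PQQ-L (SE 0.165, adjusted p = 0.235). With the choroid plexus score as a covariate it was -1.11 in PQQ-H (SE 0.796, adjusted p = 1.0). Every CON library was high in choroid plexus markers and every PQQ-treated library low, so that Kcnh2 as a response to PQQ and the choroid plexus level of the libraries cannot be told apart here.

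The other EAG, ERG and ELK channels did not pass an adjusted p below 0.05. Kcnh3, the highest of them, was at 31.6 ± 17.5 FPKM in CON, 18.1 ± 4.56 in PQQ-L and 23.3 ± 8.67 in PQQ-H. It was among the members that were high in the striatum-rich libraries, where it reached 27.4 to 50.3 FPKM against 11.7 to 24.0. Kcnh7, an ERG channel of neurons, had a log2FC of 0.60 in PQQ-L (unadjusted p = 0.0463, adjusted p = 0.240, limma), the opposite sign to Kcnh2.

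Among the Kv1 channels of axons, Kcna1 varied little, at 27.0 ± 0.669 FPKM in CON, 27.1 ± 3.54 in PQQ-L and 26.4 ± 3.74 in PQQ-H. Kcna6 was at 18.6, 16.5 and 16.8 FPKM in CON, at 16.6, 14.2, 18.8, 16.5 and 12.1 in PQQ-L, and at 14.9, 14.4, 11.1 and 11.4 in PQQ-H. All PQQ-H libraries were below all CON libraries, while PQQ-L overlapped with both. The log2FC in PQQ-H was -0.43 (SE 0.152, adjusted p = 0.349, limma), which did not pass. With the choroid plexus score as a covariate it was 0.30 (SE 0.669). That fit cannot settle the sign, since choroid plexus markers set every CON library apart from every PQQ-treated library. The beta subunit Kcnab2 was at 53.7 ± 18.0 FPKM in CON, 76.0 ± 13.7 in PQQ-L and 75.3 ± 29.7 in PQQ-H, and its groups overlapped. It was at 40.9, 45.9, 47.3 and 54.4 FPKM in the striatum-rich libraries, and at 52.2 to 111 in the others. The log2FC of Kcnab2 from CON was 0.53 (SE 0.291) in PQQ-L and 0.45 (SE 0.304) in PQQ-H with limma. With the striatal score as a covariate these were -0.0 (SE 0.125) and 0.27 (SE 0.115). Kcnab1 was at 67.9, 50.0, 71.6 and 42.5 FPKM in the striatum-rich libraries, and at 25.4 to 44.9 in the others.

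The Kv3 channels, which serve fast spiking, had a positive log2FC for all 4 members in PQQ-L vs. CON and a negative one for all 4 in PQQ-H vs. PQQ-L, and 2 of them, Kcnc1 and Kcnc4, had an unadjusted p below 0.05 in the latter. Kcnc4 was at 3.93, 10.3 and 7.27 FPKM in CON, at 9.66, 7.46, 11.1, 8.39 and 12.1 in PQQ-L, and at 3.61, 5.38, 6.51 and 6.21 in PQQ-H. The doses did not overlap and CON spanned both. The log2FC between the doses was -0.85 (SE 0.264, adjusted p = 0.58, limma), and -0.57 (adjusted p = 0.465) with the striatal score as a covariate.

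No Kv2 or Kv4 channel was called. Kcnd3, which carries A-type current, was at 5.49 ± 3.49 FPKM in CON, 8.06 ± 1.33 in PQQ-L and 5.45 ± 2.0 in PQQ-H. Kcnip2, the Kv4 partner, was at 110.0, 41.0 and 59.5 FPKM in CON, at 33.4, 49.1, 25.4, 48.0 and 47.1 in PQQ-L, and at 92.8, 64.6, 65.9 and 54.8 in PQQ-H. All PQQ-H libraries were above all PQQ-L libraries, with a log2FC of 0.79 (SE 0.286, adjusted p = 0.58, limma), and the 2 highest libraries were striatum-rich.

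The Kv7 channels form the M-current that muscarinic receptors close. Kcnq5 was at 2.62, 4.71 and 5.41 FPKM in CON, at 5.71, 7.63, 4.89, 5.75 and 5.51 in PQQ-L, and at 6.96, 6.01, 5.25 and 5.56 in PQQ-H. CON 1 was the lowest library, and the groups overlapped. The log2FC was 0.51 (SE 0.212, adjusted p = 0.235) in PQQ-L and 0.53 (SE 0.221, adjusted p = 0.452) in PQQ-H with limma, and both turned to -0.05 and -0.01 with the thalamic marker score as a covariate.

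Of the silent subunits, which form no channel alone, Kcng2 had the largest log2FC in PQQ-L, 2.03 (SE 0.915, adjusted p = 0.240, limma), and 0.30 (SE 0.312) with the striatal score as a covariate. Kcnf1, the highest of them, was at 9.44 to 24.2 FPKM, and its groups overlapped. Kcnv1 was at 1.02 FPKM in PQQ-L 1 and at 2.84 to 5.80 in the other libraries. Kcng4 was highest in CON 1 (4.26 FPKM) and at 0.555 to 2.49 elsewhere.

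**Figure D4:**
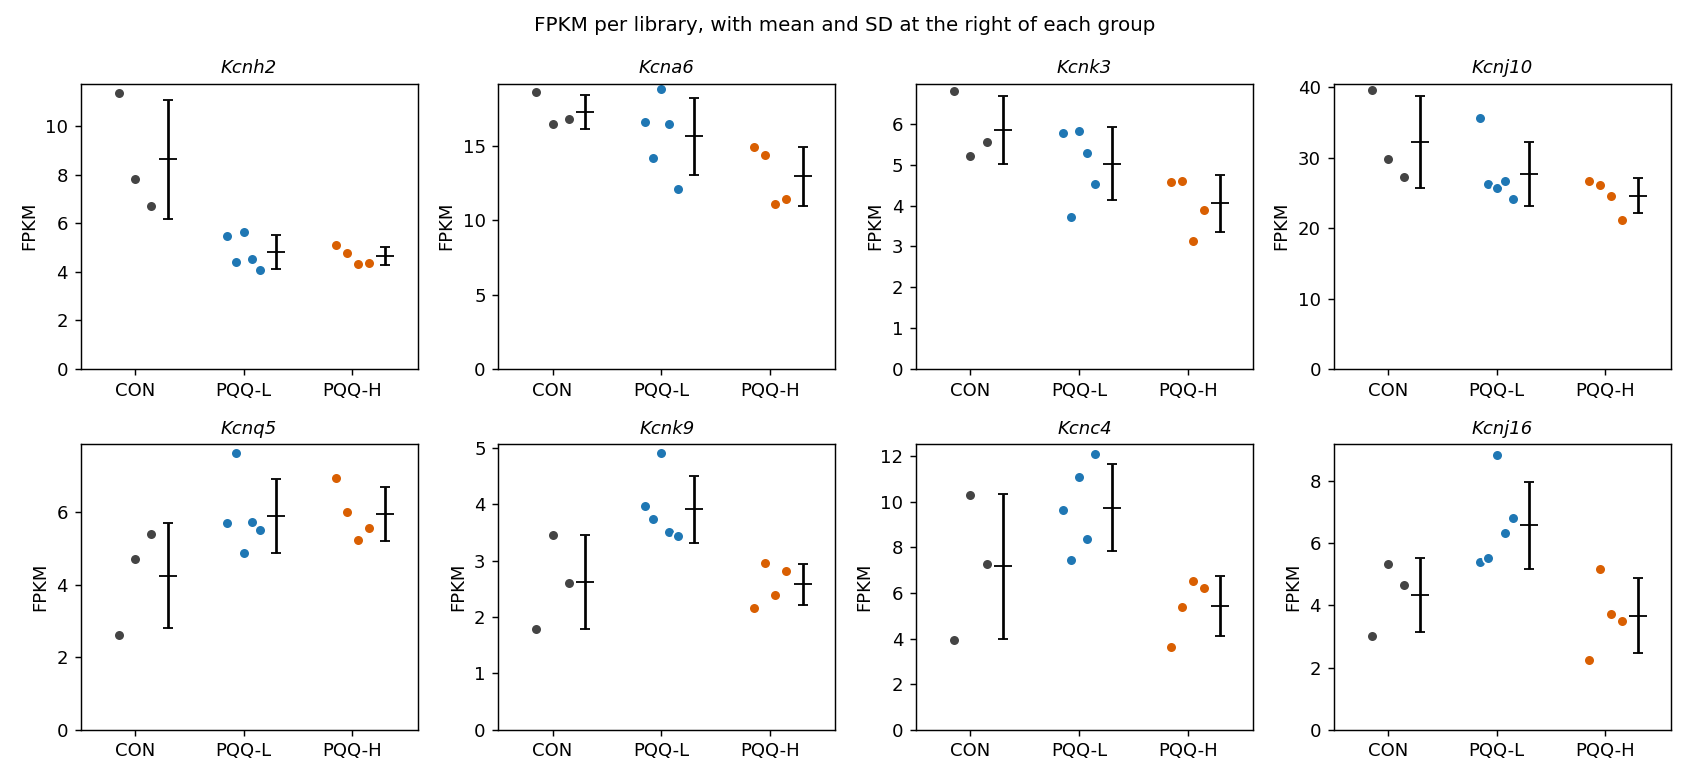
FPKM of 8 members in each library (points) by group, with the mean and SD at the right of each group. Kcnh2, Kcna6, Kcnk3 and Kcnj10 were lower in every PQQ-H library than in every CON library, and Kcnk9, Kcnc4 and Kcnj16 were lower in every PQQ-H than in every PQQ-L library.

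Among the inward rectifiers, Kcnj10, which astrocytes use to buffer potassium, was at 39.6, 29.8 and 27.2 FPKM in CON, at 35.6, 26.2, 25.7, 26.7 and 24.2 in PQQ-L, and at 26.7, 26.1, 24.5 and 21.1 in PQQ-H. The highest PQQ-H library was just below the lowest CON library. The log2FC was -0.37 (SE 0.154, adjusted p = 0.442, limma) in PQQ-H, and -0.13 (adjusted p = 0.969) with the thalamic score as a covariate. With the striatal score it was -0.33 (SE 0.14, adjusted p = 0.338), and with the choroid plexus score -0.79 (SE 0.703). The summed FPKM of 9 astrocyte markers was 831, 838 and 832 in CON and 765, 998, 796 and 754 in PQQ-H. The part of astrocyte content in the Kcnj10 values was not tested. Kcnj16, which joins Kcnj10 in a mixed channel, was at 3.01, 5.34 and 4.67 FPKM in CON, at 5.41, 5.51, 8.85, 6.32 and 6.82 in PQQ-L, and at 2.23, 5.18, 3.72 and 3.51 in PQQ-H. Every PQQ-L library was above every CON and every PQQ-H library. The log2FC was 0.60 (SE 0.261, adjusted p = 0.237) in PQQ-L vs. CON and -0.87 (SE 0.240, adjusted p = 0.58) in PQQ-H vs. PQQ-L with limma, and neither passed. Kcnj9 was at 27.2 ± 5.54, 29.2 ± 4.65 and 21.5 ± 1.27 FPKM in CON, PQQ-L and PQQ-H.

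The acid-sensitive K2P channels Kcnk3 and Kcnk9 set the resting potential. Kcnk3 was at 6.80, 5.20 and 5.55 FPKM in CON, at 5.77, 3.73, 5.83, 5.28 and 4.52 in PQQ-L, and at 4.58, 4.59, 3.13 and 3.90 in PQQ-H. All PQQ-H libraries were below all CON libraries, with a log2FC of -0.53 (SE 0.180, adjusted p = 0.322, limma), which did not pass. With the striatal and thalamic scores as covariates the log2FC was -0.46 (SE 0.144, adjusted p = 0.183) and -0.41 (SE 0.255, adjusted p = 0.969). With the choroid plexus score it was -0.03, with an SE of 0.819 that is too wide to tell a difference from none. Kcnk9 was at 1.79, 3.46 and 2.6 FPKM in CON, at 3.97, 3.75, 4.91, 3.51 and 3.44 in PQQ-L, and at 2.16, 2.96, 2.40 and 2.81 in PQQ-H. The doses did not overlap, with a log2FC of -0.58 (SE 0.177, adjusted p = 0.58, limma). Kcnk1, the K2P channel at the highest level, was at 23.0 ± 5.07 FPKM in CON, 18.1 ± 0.999 in PQQ-L and 19.3 ± 2.99 in PQQ-H. Kcnk12, a weakly conducting relative, was at 2.32 ± 1.09, 3.18 ± 0.340 and 2.03 ± 0.508.

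Of the calcium- and sodium-activated channels, Kcnn1, Kcnn2, Kcnma1, Kcnt1 and Kcnt2 were split between striatum-rich and striatum-poor libraries. Kcnma1, the large-conductance BK channel, was at 7.70 to 9.68 FPKM in the striatum-rich libraries and at 11.4 to 16.5 in the others, and its neuronal subunit Kcnmb4 was at 12.1 to 19.8 over all libraries, with no such split. The sodium-activated pair split in opposite ways, with Kcnt1 at 9.05 to 15.9 and Kcnt2 at 0.604 to 1.37 FPKM in the striatum-rich libraries, against 1.96 to 7.85 and 1.98 to 2.84. Kcnt2 had a log2FC of 0.95 (SE 0.353, adjusted p = 0.226, limma) in PQQ-L vs. CON. Kcnmb4os1 was at 2.23 to 12.7 FPKM. The strandedness of the counting is not stated, so that reads of Kcnmb4 and of the RNAs opposite to it cannot be told apart, as is also the case for Kcnip1 and Kcnmb1, which overlap on opposite strands. Kcne1l, an auxiliary subunit, was at 3.41 to 5.76 FPKM in the striatum-rich libraries and at 1.36 to 2.80 in the others.

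The 10 members with a mean below 0.5 FPKM were Kcne4, Kcnh6, Kcnmb1, Kcnip4, Kcnh5, Kcnn4, Kcnk7, Kcnk5, Kcnj5 and Kcnmb2, and they were tested with a limit of 0.1 FPKM in place of 0.5. None had an adjusted p below 0.05. Kcnk5 was at 0.278, 0.178 and 0.295 FPKM in CON, and at 0.0457 to 0.135 in the PQQ-treated libraries, with a log2FC of -0.87 in both comparisons (adjusted p = 0.115 and 0.118, limma). The Kcnk5 values rested on 7 to 43 reads per library, and neither comparison passed. At these levels the added 0.1 FPKM makes a log2FC smaller in size. Every CON library was also high in choroid plexus markers, whose part in the Kcnk5 values was not tested.

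The genes that work with these channels were taken from a list of 38, of which 36 were tested. It covers the HCN pacemaker channels, partners of Kv and BK channels, sulfonylurea receptors, Kv1 clustering proteins, the sodium-potassium pump, chloride-potassium cotransporters and the coupling of G protein-gated rectifiers. None had an adjusted p below 0.05 in any comparison, and at an unadjusted p below 0.05 the low dose had 2 lower and 3 higher than CON, the high dose had 3 and 1, and PQQ-H had 1 and 0 against PQQ-L. The shares of all genes lower and higher were 11.6% and 8.92%, 7.88% and 1.85%, and 4.6% and 3.55%. The median log2FC of the list was 0.07, 0.03 and -0.12, and that of all genes -0.03, -0.03 and -0.02. Kctd16, an auxiliary subunit of the GABA-B receptor, was at 4.04 ± 0.869 FPKM in CON, 5.65 ± 0.192 in PQQ-L and 5.17 ± 0.236 in PQQ-H, with all PQQ-treated libraries above all CON libraries. Its log2FC was 0.50 (SE 0.120, adjusted p = 0.107) and 0.37 (SE 0.125, adjusted p = 0.317) with limma. Slc12a2, a cotransporter that brings chloride in and is abundant in choroid plexus, was at 21.1 ± 4.47, 15 ± 3.02 and 13.2 ± 1.86 FPKM. Its log2FC was -0.49 (SE 0.175, adjusted p = 0.223) in PQQ-L and -0.66 (SE 0.183, adjusted p = 0.166) in PQQ-H with limma. Choroid plexus markers were low in both of these groups, and their part in the Slc12a2 values was not tested.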

How the data were processed

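RNA of 12 hippocampal libraries was sequenced by the authors, who used fastp for read filtering, HISAT2 for mapping (build mm39 in the submitters' processing notes) and HTSeq-count for gene counts, and deposited FPKM for all libraries. Annotation, strandedness and program versions are not given in the sources used here. FPKM divides by gene length and library total. Whole reads were recovered from the FPKM steps for 100.0% of genes above 0 in at least 2 libraries (tolerance 0.02 reads). The totals were 29654553 to 38179496 per library, and 60 members had at least 100 reads in every library. For these 60 members, counting noise was small beside the spread between libraries. Other members had fewer reads, down to 0 for Kcnk7 in PQQ-L 2.

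limma 3.58.1 (R 4.3.3) with a mean-variance trend was run on log2(FPKM + 0.1) with all libraries in a single model. The 13796 genes averaging 0.5 FPKM or more were tested, with Benjamini-Hochberg adjustment over all of them. Calls needed an adjusted p below 0.05 and a |log2FC| over 1. DESeq2, used by the authors, was not applied to the FPKM. A marker score was the mean of log2(FPKM + 0.1) over a list. In a simulation over 13796 genes with 200 changed in PQQ-L vs. CON by a log2FC of 2, limma made 195 calls, 190 of them correct, and it made 0 calls in PQQ-H vs. CON, where none was changed. The simulation drew each gene independently, without tissue differences shared between genes. It therefore does not measure false calls from such differences, or the power for smaller changes. Library pairs within a group differed beyond sampling noise (19 pairs, chi-square of at least 18.76 per degree of freedom). A count test on the recovered reads (limma voom) called 91 genes in PQQ-L vs. CON, 117 in PQQ-H vs. CON and 0 in PQQ-H vs. PQQ-L. The alternatives were 18 other settings, each of the 12 libraries left out, and, chosen after seeing the data, a fit without the 4 striatum-rich libraries.

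The members and lists were chosen with earlier results of these data known. Members were named if they had an adjusted p below 0.05, were among the 6 smallest p of a comparison, the 10 highest means, the 8 widest ranges or the highest of a subfamily. Other members named in the text were chosen after their values were seen. Figures and tables used Python 3.11.15, pandas 2.3.3 and matplotlib 3.10.9. Gene positions on mm39 were not used here. Values of 3 members are not reported here, although the counts and medians include them.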

Additional observations from a re-analysis of the deposited data

Results flagged for a closer look

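Of 70 groups of 4 or 5 libraries looked at for the 35 members named by the rule above, 3 held a library far from the others, where chance gives 3.5. Kcnab2, the Kv1 beta subunit, was at 52.2 FPKM in PQQ-L 3 and at 78.6 to 86.5 in the other PQQ-L libraries. Kcnk1, a K2P channel, was also lowest in PQQ-L 3, at 16.3 FPKM against 18.1 to 18.8. PQQ-L 3 had the highest striatal marker level of its group, 185, and its part in these values was not tested. Kcnj10, the astrocytic inward rectifier, was at 35.6 FPKM in PQQ-L 1 and at 24.2 to 26.7 in the other PQQ-L libraries.

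Kcnc4, a Kv3 channel, lay on opposite sides of the CON mean of 7.16 FPKM in the groups that received PQQ, with PQQ-L at 7.46 to 12.1 and PQQ-H at 3.61 to 6.51. Whether the effects of the doses differ was not tested beyond the direct comparison, in which limma gave a log2FC of -0.85 (adjusted p = 0.58) for PQQ-H vs. PQQ-L, and CON itself spanned 3.93 to 10.3.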

How the results depend on the processing

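The number of members past both thresholds was 0 in all 3 comparisons under every alternative that kept all libraries. With each library left out in turn it was 0 to 13 in PQQ-L vs. CON (13 without CON 2), 0 to 1 in PQQ-H vs. CON (Kcnh2, without CON 3) and 0 between the doses. At an adjusted p below 0.05 the count in PQQ-L vs. CON was 23 without CON 2. Kcnh2 in PQQ-H vs. CON kept its direction in all 31 alternatives and its adjusted p below 0.05 in 11, and among the losses were no filter on low genes (adjusted p = 0.0516), a filter at 1 FPKM (0.0504), scaling by median of ratios (0.0635), quantile normalization (0.0729), only the 2 groups compared (0.214), array quality weights (0.152) and the thalamic score (0.612). In PQQ-L vs. CON it passed in 3 of 31, namely voom on recovered reads (0.0463), the first letter as a covariate (0.0424) and without CON 2 (0.0275). The log2FC turned for Kcna6 in PQQ-H with the choroid plexus score (0.30, SE 0.669), in a fit that cannot settle the sign. With the thalamic score it turned for Kcnq5 in PQQ-L (-0.05) and PQQ-H (-0.01), while Kcnip1 in PQQ-H came to 0.0. The cause was not tested. The count of members higher in PQQ-L vs. CON at an unadjusted p below 0.05 was 9, and it ran from 0 to 14 over the settings and from 1 to 23 with a library left out. The median log2FC of the members lay between -0.14 and 0.10 in all 31 alternatives. Replicate numbers did not pair the libraries, with correlations of deviations of -0.62 to 0.72 and 2 of 6, 2 of 6 and 3 of 8 libraries correlating best with their own number. With the replicate block, members past both thresholds numbered 0 in every comparison, and Kcnh2 in PQQ-H had an adjusted p of 0.176. The lowest read count of a tested member was 23, for Kcnh4 in PQQ-H 3.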
